A study of Mus musculus with 4 samples.

Results

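The genes of the cohesin ring and of the proteins that load, lock and release it were examined in cervical motor neurons (MNs). The set holds 10 genes of the 23420 gene symbols in the count files, chosen by name, with no threshold on a measured value. They are the ring subunits *Smc1a*, *Smc3* and *Rad21*, the accessory subunits *Stag1* and *Stag2*, the regulators *Pds5a* and *Pds5b*, the loader pair *Nipbl* and *Mau2*, and the acetyltransferase gene *Esco2*. All 10 passed the filter on low counts.

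Cohesin is a ring that holds DNA. SMC1A and SMC3 form its long arms, RAD21 closes it, and a STAG protein sits on RAD21 and touches DNA-bound factors such as CTCF. NIPBL and MAU2 help the ring onto DNA and NIPBL drives loop extrusion, PDS5 proteins together with WAPL take rings off, and ESCO2 acetylates SMC3 in S phase so that rings stay closed around sister chromatids. Dividing cells therefore use cohesin both for chromatid cohesion and for chromatin loops, whereas neurons that no longer divide use it for loops. In the study, cohesin is of interest because loops end where it meets boundary factors, and PATZ1 is a zinc finger protein studied as one of them.

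MNs were differentiated from mouse embryonic stem cells (mESCs) of the E14 line through embryoid bodies treated with all-trans retinoic acid and SAG, a Hedgehog pathway agonist, in both genotypes. There were 2 wild-type (WT) libraries and 2 libraries from *Patz1* -/- cells (*Patz1* KO). The KO lines were made from E14 cells with CRISPR/Cas9 as single clones, and the labels do not say which clone gave which library, so clone and genotype cannot be told apart. The study's methods describe replicates as independent differentiations. The sample titles name ESCs whereas the source and cell type name MNs. The libraries were taken as MNs, as the source and cell type name them. The filter was passed by 10 of 10 neuron and 10 of 10 motor neuron marker genes, and by 5 of 10 pluripotency markers. It was also passed by 10 of 10 mesenchyme and 9 of 10 endoderm markers, so passing does not by itself name a cell type. Among the pluripotency markers, *Nanog* had 46 to 75 counts per library and was the most counted of the list, while *Pou5f1* had 3 to 7 and *Fgf4* had 0 in all 4.

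The libraries were stranded and made from total RNA depleted of ribosomal RNA, and the deposited values are raw read counts per gene symbol. The totals were 14769104 and 15728158 counts in WT and 23881522 and 17402342 counts in *Patz1* KO. Levels are given as CPM, a gene's count relative to the TMM-scaled size of its library, in the order WT 1, WT 2, KO 1, KO 2, and fold changes as *Patz1* KO over WT on the log2 scale. *Patz1* itself stood at 91.5 and 94.3 CPM in WT and at 47.6 and 42.6 CPM in KO, and fell by 1.04 (SE 0.095, edgeR adjusted p = 1.1e-07). These counts cover the whole gene and do not show the edit itself. Over all 14269 genes tested, the groups of libraries did not overlap in 74.2%, and the quasi-likelihood test of edgeR, adjusted by the Benjamini-Hochberg method, called 47.9% at an adjusted p below 0.05, 24.1% higher and 23.8% lower in KO.

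Of the 10 cohesin genes, 7 fell in *Patz1* KO, 1 rose and 2 were not called. The ring subunits *Smc3* and *Rad21*, both STAG genes, both PDS5 genes and *Esco2* fell, *Smc1a* rose, and neither *Nipbl* nor *Mau2* passed the test. The median log2 fold change of the 10 genes was -0.29, against -0.0014 over all genes tested. The groups of libraries did not overlap for any of the 10. Their summed level was 1502 and 1595 CPM in WT and 1373 and 1319 CPM in KO. Without WT replicate 1, 5 of the 10 were called (all lower), and without WT replicate 2, 4 were called (3 lower, 1 higher). In bulk samples such as these, fewer cells of a type and less RNA per cell cannot be told apart.

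**Figure D1:**
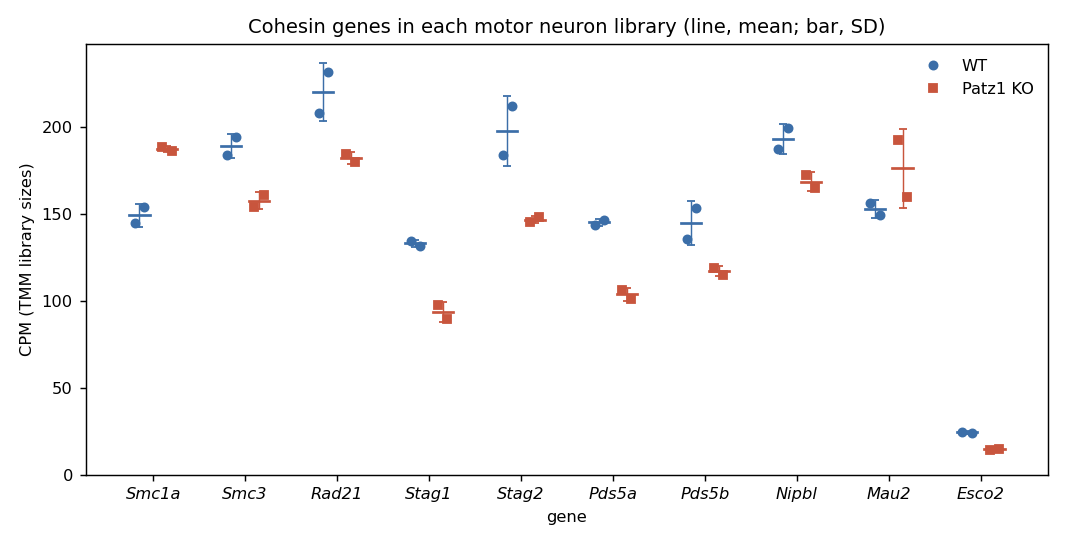
CPM of the 10 cohesin genes in each library. Circles are the 2 WT libraries and squares the 2 *Patz1* KO libraries, with the group mean as a line and the SD as a bar. *Smc1a* and *Mau2* are the genes whose KO libraries lie above the WT libraries. The KO libraries of the other 8 genes lie below the WT libraries.

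The bases before the start of transcription are shown for the cohesin gene that rose and for the pair with the smallest p among those that fell and have an entry in the RefSeq promoter table. That table holds 6 of the 10 genes, *Smc1a*, *Smc3*, *Stag1*, *Pds5a*, *Pds5b* and *Mau2*, the last with 2 starts. Each run holds 200 bases, from 250 to 51 bases before a RefSeq start, 5′ to 3′ on the strand of the gene, from GRCm38.p6. *Smc1a* is from chrX:152016178-152016377 (plus), *Stag1* from chr9:100643198-100643397 (plus, inside the longer GENCODE gene) and *Pds5a* from chr5:65698287-65698486 (minus). Capitals mark a match to 1 of 3 motifs searched on both strands: GGGGAGGG, a G-rich motif of the kind bound by PATZ1 and MAZ, GGCGGGAA, an E2F site, and TTTGAA, the core of the CHR element of late cell cycle genes.
Smc1a: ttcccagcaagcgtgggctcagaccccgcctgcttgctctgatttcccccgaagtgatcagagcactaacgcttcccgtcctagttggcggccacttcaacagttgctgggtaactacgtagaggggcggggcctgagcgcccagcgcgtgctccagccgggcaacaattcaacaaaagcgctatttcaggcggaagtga
Stag1: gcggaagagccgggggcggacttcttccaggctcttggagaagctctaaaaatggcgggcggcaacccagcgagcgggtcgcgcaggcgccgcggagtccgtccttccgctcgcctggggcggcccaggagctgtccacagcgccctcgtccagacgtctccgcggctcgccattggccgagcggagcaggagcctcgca
Pds5a: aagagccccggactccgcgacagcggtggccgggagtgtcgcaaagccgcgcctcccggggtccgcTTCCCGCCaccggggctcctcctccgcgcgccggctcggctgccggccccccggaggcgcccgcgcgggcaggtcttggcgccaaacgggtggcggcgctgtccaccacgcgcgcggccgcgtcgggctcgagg

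The *Pds5a* run holds GGCGGGAA on its other strand, and no motif was found in the other runs shown. Over the full 250 bases before each of the 7 starts of the 6 genes, GGGGAGGG was in 0, against 9.69% of all 32851 promoters in the table. GGCGGGAA was in 1 of them, that of *Pds5a*, against 1.86% of all, and TTTGAA was in 1, that of *Pds5b*, against 16% of all. The 250 bases were 56.8% G and C for *Smc1a*, 71.2% for *Stag1* and 80.4% for *Pds5a*, against a median of 52.4%. A match is a run of letters and not a bound site, and its absence from 250 bases says nothing of binding elsewhere.

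The genes of the ring's arms changed in opposite directions against all genes, but without WT replicate 1 neither was called (adjusted p = 0.129 for *Smc1a* and 0.0954 for *Smc3*), and against its neighbours *Smc1a* stood at -0.46. *Smc1a*, which lies on the X chromosome of GRCm38 (mm10) at chrX:152016428-152062694 on the plus strand, was counted at 144.5, 153.9, 188.5 and 186.1 CPM. Both KO libraries were above both WT libraries, a rise of 0.33 or 25.5% (SE 0.085, 95% interval 0.15 to 0.51, edgeR adjusted p = 0.00408). *Smc3*, at chr19:53600398-53645833 on the plus strand, had 184.0, 193.8, 153.9 and 160.9 CPM. It was lower in both KO libraries and fell by 0.26 (SE 0.086, 95% interval -0.44 to -0.083, edgeR adjusted p = 0.0170).

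Per length of exon, *Smc1a* was at 0.813 and 0.821 of the *Smc3* level in the WT libraries and at 1.27 and 1.20 of it in the KO libraries. The products pair in each ring, and in the KO libraries the order of their RNA levels was the reverse of that in WT. Both levels are CPM divided by exon length in kilobases (FPKM), which allows genes to be compared. The smallest two-sided p that an exact permutation test could give for a ratio here, with 2 libraries in each group, is 0.333, so no ratio was tested.

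*Rad21*, the kleisin gene that closes the ring, lies at chr15:51962240-51991747 on the minus strand. It was counted at 208.1, 231.5, 184.4 and 179.4 CPM and fell by 0.27 (SE 0.089, 95% interval -0.46 to -0.086, edgeR adjusted p = 0.0170). *Rad21* moved with *Smc3*: its FPKM was 1.39 and 1.47 times that of *Smc3* in WT and 1.47 and 1.37 times in KO, ranges that overlap. The calls of *Smc3* and *Rad21* both depended on having 2 WT libraries, since without WT replicate 1 their adjusted p was 0.0954 and 0.0509, and without WT replicate 2 it was 0.266 and 0.359.

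Both accessory subunits fell by more. STAG1 and STAG2 are alternatives in somatic rings, so each ring holds 1 of them. *Stag1*, at chr9:100597798-100959375 on the plus strand, had 134.2, 131.6, 97.4 and 89.3 CPM and fell by 0.51 (SE 0.087, 95% interval -0.69 to -0.32, edgeR adjusted p = 0.00012). *Stag2*, at chrX:42149317-42277185 on the plus strand, had 183.5, 212.0, 145.1 and 147.9 CPM and fell by 0.43 (SE 0.091, 95% interval -0.62 to -0.24, edgeR adjusted p = 0.000774). An annotated gene on the opposite strand, *Gm37564*, overlaps *Stag2*, and the strand setting of the counting is not given in the sources used here.

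The balance between the STAG genes was not seen to shift. *Stag2* made up 57.3% and 61.2% of their summed FPKM in WT and 59.4% and 61.9% in KO, and the groups overlap. The ratio of *Stag2* to *Stag1* counts was 1.37 and 1.61 in WT and 1.49 and 1.66 in KO. Their sum set against *Rad21* was 0.966 and 0.938 in WT and 0.831 and 0.836 in KO, lower in both KO libraries.

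The PDS5 genes encode large proteins that bind the closed ring and act both in its release and in keeping it acetylated. *Pds5a*, at chr5:65605721-65698273 on the minus strand, had 143.7, 146.4, 106.2 and 101.1 CPM and fell by 0.48 (SE 0.085, 95% interval -0.66 to -0.30, edgeR adjusted p = 0.000153). The gene models *Gm42727* and *Gm42729* overlap it on the other strand. *Pds5b*, at chr5:150673739-150810690 on the plus strand, had 135.5, 153.5, 118.9 and 114.8 CPM and fell by 0.31 (SE 0.090, 95% interval -0.49 to -0.12, edgeR adjusted p = 0.00917). The ratio of *Pds5b* to *Pds5a* counts was 0.943 and 1.05 in WT and 1.12 and 1.14 in KO, a difference of 0.18 in log2 ratio with no overlap between the groups. This difference was 0.10 without WT replicate 1 and 0.26 without WT replicate 2. Without WT replicate 2, *Pds5b* was no longer called (adjusted p = 0.290).

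Neither gene of the loader passed the test, and they lay on opposite sides of WT. *Nipbl*, at chr15:8290617-8444463 on the minus strand, had 186.9, 199.1, 172.2 and 164.7 CPM, a log2 fold change of -0.20 (SE 0.086, 95% interval -0.38 to -0.015, edgeR adjusted p = 0.0693). *Mau2*, at chr8:70016123-70042734 on the minus strand, had 156.4, 149.2, 192.2 and 159.9 CPM, a log2 fold change of 0.21 (SE 0.096, 95% interval 0.0044 to 0.41, edgeR adjusted p = 0.0851). Both intervals, which are not adjusted for the number of genes, leave out 0, so the data neither call a change nor show equal levels.

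The high *Mau2* value came from KO replicate 1. With that library left out the log2 fold change of *Mau2* was 0.066, and with KO replicate 2 left out instead it was 0.34 and was called (adjusted p = 4.65e-05). *Nipbl* was called when KO replicate 1 was left out (adjusted p = 0.0116). The ratio of *Nipbl* to *Mau2* counts was 1.20 and 1.33 in WT and 0.896 and 1.03 in KO, a difference of -0.39 in log2 ratio, and the groups did not overlap.

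*Esco2* had the lowest level per exon length and the largest fall of the 10 genes. It lies at chr14:65819038-65833994 on the minus strand and had 370, 379, 343 and 253 counts, or 24.8, 23.8, 14.2 and 15.1 CPM. The fall was 0.74 or 40.0% (SE 0.122, 95% interval -0.996 to -0.48, edgeR adjusted p = 8.49e-05). *Esco2*, *Stag1* and *Pds5a* were called in all 11 alternative settings that were planned, while *Smc1a*, *Stag2* and *Pds5b* were called in 10, *Smc3* and *Rad21* in 9, *Mau2* in 2 and *Nipbl* in 1. The setting in which *Smc1a* was not called left out WT replicate 1 (adjusted p = 0.129), and that in which *Stag2* was not called left out WT replicate 2 (adjusted p = 0.0803).

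Set side by side as FPKM, *Rad21* was the most abundant of the 10 in WT, at 55.6 ± 4.19 (SD, n = 2), and *Esco2* the least, at 8.36 ± 0.244. *Smc3* followed *Rad21* at 38.9 ± 1.43. *Smc1a* at 31.8 ± 1.41 and *Stag2* at 31.4 ± 3.19 overlapped, and *Mau2* was at 28.3 ± 0.942. *Stag1* at 21.5 ± 0.301 and *Nipbl* at 20.5 ± 0.917 were close, with 21.3 in the lower *Stag1* library and 21.1 in the higher *Nipbl* library. *Pds5b* at 17.5 ± 1.54 and *Pds5a* at 16.2 ± 0.212 met at 16.4, the lower library of one and the higher of the other.

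In KO, *Rad21* was still highest at 46.0 ± 0.893, but *Smc1a* came next at 39.9 ± 0.360. *Mau2* at 32.7 ± 4.24 and *Smc3* at 32.5 ± 1.02 overlapped. *Stag2* stood at 23.2 ± 0.323, *Nipbl* at 17.9 ± 0.567, *Stag1* at 15.1 ± 0.929, *Pds5b* at 14.2 ± 0.353, *Pds5a* at 11.6 ± 0.404 and *Esco2* at 5.02 ± 0.227. Lengths were those of the union of exons of the GENCODE basic transcripts. With all annotated exons *Mau2* came to 16.7 FPKM in WT, *Pds5a* to 7.50 and *Stag1* to 11.3, while *Nipbl* stayed at 20.5. Places in the middle of the order, and the closeness of *Stag1* to *Nipbl*, thus depend on the gene model.

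The germline subunits replace somatic ones in meiotic rings, and 2 of the 3 tested rose, against 24.1% of all genes tested. *Stag3*, the germline STAG, was counted at 7.25, 6.35, 16.5 and 16.1 CPM and rose by 1.26 (SE 0.155, edgeR adjusted p = 3.23e-06). *Rec8*, the meiotic counterpart of *Rad21*, had 80.3, 82.2, 106.4 and 102.4 CPM and rose by 0.36 (SE 0.087, edgeR adjusted p = 0.00233), a call that was lost without WT replicate 1 (adjusted p = 0.0538). *Smc1b*, the meiotic counterpart of *Smc1a*, had 30, 24, 18 and 19 counts, a log2 fold change of -0.94 that was not called (edgeR adjusted p = 0.0515). It was called in 5 of 11 settings, with an adjusted p from 0.0109 to 0.337 over all of them. *Rad21l* had 2, 0, 1 and 0 counts and was not tested. Per exon length *Stag3* stood at 1.62 ± 0.151 FPKM in WT and 3.88 ± 0.0746 FPKM in KO (SD, n = 2), far below both somatic STAG genes. *Rec8* was at 37.2 ± 0.617 FPKM in WT and 47.8 ± 1.30 FPKM in KO, where *Rad21* was at 46.0 ± 0.893. That closeness depends on the gene model: with all annotated exons, *Rec8* was at 35.6 FPKM and *Rad21* at 43.0 in KO.

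Genes that act on the ring through the cell cycle mostly fell: 11 of 16 were lower, 1 was higher and 4 were not called, with a median of -0.71. Among the release factors, *Wapl*, which opens the ring together with PDS5, had 140.4, 153.1, 127.4 and 121.1 CPM. It fell by 0.24 (SE 0.087, edgeR adjusted p = 0.0310), but the call was lost in 4 of 11 settings. The adjusted p was 0.0895 with DESeq2's Wald test, 0.0598 with no filter on low counts, 0.0898 without WT replicate 1 and 0.404 without WT replicate 2. *Cdca5*, whose product sororin shields acetylated rings from WAPL, fell from 29.0 and 27.9 to 15.7 and 12.8 CPM, a change of -0.99 (SE 0.127, edgeR adjusted p = 5.73e-06).

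The protectors of centromeric cohesin and the separase gene fell by similar amounts. The shugoshin genes *Sgo1* and *Sgo2a* had log2 fold changes of -0.79 and -0.81, and *Espl1*, which encodes separase, the protease that cuts RAD21, had -0.78. *Pttg1*, which encodes the separase inhibitor securin, had 40.6, 37.1, 35.3 and 38.2 CPM. Its groups overlapped, and it was not called (log2 fold change -0.084, 95% interval -0.30 to 0.13, edgeR adjusted p = 0.522).

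Of 4 genes that act in cohesion at replication forks, 3 fell. *Dscc1* and *Chtf18*, which encode parts of a clamp loader that helps SMC3 acetylation, had log2 fold changes of -1.36 and -0.86, and the helicase gene *Ddx11* had -0.74. *Chtf8*, the small partner in that clamp loader, was not called at -0.086 (95% interval -0.27 to 0.10). It overlaps *Has3* on the other strand and another entry named *Chtf8* on its own strand. The mitotic kinase genes *Haspin*, *Plk1* and *Aurkb* had log2 fold changes of -0.69, -0.84 and -0.47, each called.

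The acetylation genes did not move as a group. *Esco1*, which acetylates SMC3 outside S phase, had 44.2, 44.8, 48.5 and 50.8 CPM and was not called (log2 fold change 0.16, 95% interval -0.045 to 0.36, edgeR adjusted p = 0.192). *Hdac8*, which encodes the SMC3 deacetylase, had 149, 143, 467 and 364 counts, or 9.50 ± 0.714 CPM in WT and 20.5 ± 1.72 CPM in KO (SD, n = 2), and rose by 1.11 (SE 0.142, edgeR adjusted p = 5.39e-06).

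Of 6 genes for DNA-binding boundary factors, 3 fell, the targeted *Patz1* among them, and 3 were not called. Over all genes tested, 47.9% were called in either direction. *Ctcf*, which encodes the main factor that stops the ring, had 160.6, 163.0, 122.1 and 113.2 CPM and fell by 0.46 (SE 0.086, edgeR adjusted p = 0.000275). *Ctcfl*, its germline paralog, had only 18, 28, 16 and 13 counts, with a fall of 1.06 (SE 0.407, edgeR adjusted p = 0.0388). That call was lost in 5 of 11 settings, DESeq2's Wald test (adjusted p = 0.238) and the fit without WT replicate 2 (adjusted p = 0.390) among them. *Maz*, *Vezf1* and *Zfp263* were not called, at -0.085, -0.071 and -0.24, though *Zfp263* (adjusted p = 0.0516) was called in 5 of 11 settings and *Maz* in 1, without KO replicate 1 (adjusted p = 0.0366).

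**Figure D2:**
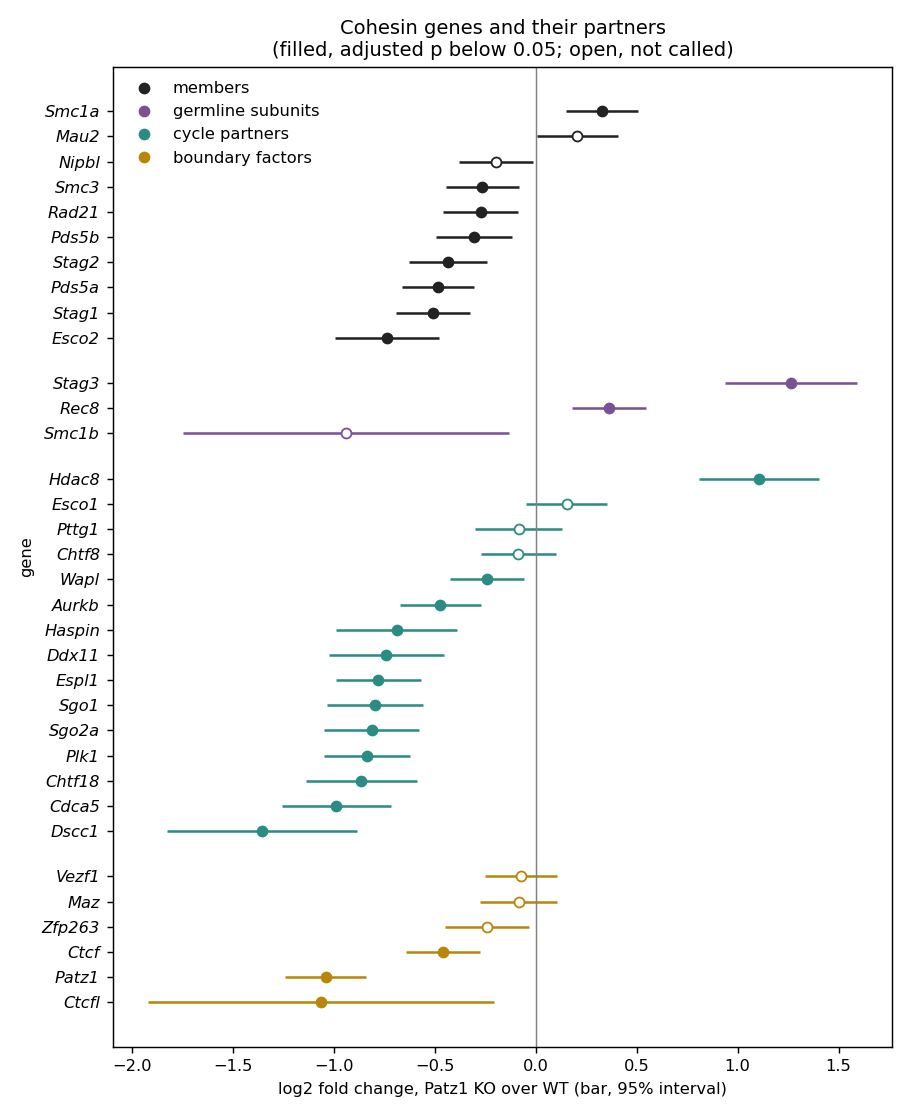
Log2 fold change (*Patz1* KO over WT) with its 95% interval for the cohesin genes and the listed partners, ordered by value in each list. Filled points were called at an adjusted p below 0.05 by edgeR and open points were not, and *Stag3*, *Hdac8*, *Rec8* and *Smc1a* are the filled points to the right of 0.

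Genes of the cell cycle and of other cell types moved in the same libraries. Of 20 S phase genes 19 fell, with a median of -0.85, and their summed level was 2571 and 2607 CPM in WT and 1522 and 1500 CPM in KO. *Tyms*, *Mcm4* and *Mcm7* had the smallest p in that list, at -1.78, -1.27 and -1.10. All 20 G2 and M phase genes fell, with a median of -0.81 and a sum of 2748 and 2935 CPM in WT and 1526 and 1549 CPM in KO, and the 3 with the smallest p were *Mki67*, *Cenpe* and *Ube2c* at -1.13, -1.11 and -1.02. The 10 cohesin genes had a smaller median change than either list, and *Esco2* was nearest to them.

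Markers of MNs rose: 8 of 10 were higher and 2 were not called, with sums of 689 and 642 CPM in WT and 1107 and 1010 CPM in KO, and *Prph*, *Chat* and *Mnx1* at 1.33, 0.99 and 0.88. Of 10 general neuron markers 6 rose and 1 fell, with *Nefl*, *Dcx* and *Rbfox3* at 1.33, 1.01 and 0.89. Of 10 progenitor markers 4 were higher and 3 lower, among them *Hes5* at -0.99, *Sox1* at 1.03 and *Pax6* at -1.05. The shares over all genes tested were 24.1% higher and 23.8% lower.

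Markers of mesenchyme, endoderm and pluripotent cells differed in how many fell. All 10 mesenchyme markers fell, with a median of -2.54 and sums of 206 and 227 CPM in WT and 44.7 and 37.7 CPM in KO (*Col3a1* -3.24, *Pdgfra* -3.96, *Acta2* -2.48). Of 9 endoderm markers tested 7 fell, with sums of 71.2 and 79.8 CPM in WT and 12.6 and 13.4 CPM in KO (*Foxa2* -2.35, *Dab2* -3.34, *Cubn* -2.92). Of these sums, *Foxa2* alone held 28.1 and 28.4 CPM in WT and 5.16 and 5.96 CPM in KO. Which cells of the cultures gave the *Foxa2* counts was not tested. Of 5 pluripotency markers tested 2 fell (*Klf4* -1.78 and *Dppa5a* -1.71), while *Nanog*, *Tfcp2l1* and *Zfp42* were not called, at -0.70, -0.64 and 0.46. The part of these lists in the values of the cohesin genes was not tested.

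The position of each cohesin gene was then set beside its value. The median log2 fold change of the tested genes was 0.24 on the X chromosome and 0.15 on chromosome 8, and lay between -0.060 and -0.0014 on the other chromosomes that hold a cohesin gene. For each gene the 25 tested genes on each side were also taken, or as many as the chromosome holds. Over all such windows in the genome, the medians ran from -0.22 at the 5th percentile to 0.50 at the 95th.

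*Smc1a* stood in a stretch where most genes rose. Its 50 neighbours, which span 14.0 Mb, had a median of 0.79, with 0.72 in KO replicate 1 and 0.81 in KO replicate 2. Of these 50, 39 rose and 3 fell. *Smc1a* minus the median of the genes around it was -0.46, and minus the median of its chromosome it was 0.084. Relative to its neighbours *Smc1a* was thus low, while relative to all genes it rose.

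*Stag2* lies at -109.9 Mb from the start of *Smc1a* on the same chromosome, among genes with a median of -0.054, 12 of 50 higher and 19 lower. It differed by -0.38 from these neighbours and by -0.68 from the X chromosome as a whole. *Hdac8* lies at -49.7 Mb, where the neighbours had a median of 0.42, and was 0.68 above it. Along the chromosome the medians in bins of 20 Mb stayed between -0.15 and 0.021 from the first gene to -65.3 Mb. The next bin, from -58.7 to -40.4 Mb, had 0.19, and the one after it had 0.93 but held only 11 genes. The bins on either side of the *Smc1a* start had 0.72 each, over 103 and 67 genes.

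**Figure D3:**
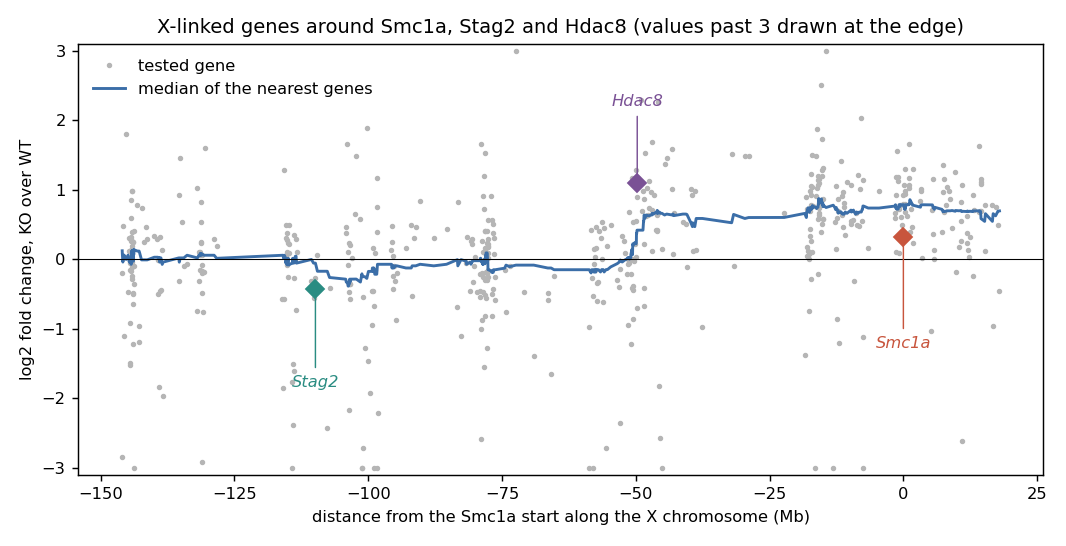
Log2 fold change (*Patz1* KO over WT) of the 527 tested X-linked genes against their distance from the start of *Smc1a* in Mb, with the median of the nearest genes as a line. The line is at -0.054 at *Stag2*, is lower in the stretch just after it, steps up near *Hdac8* and lies above *Smc1a*, and 14 genes past 3 are drawn at the edge.

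Among the genes on autosomes, *Rad21* and *Nipbl* on chromosome 15 both had neighbours that were low, at -0.24 and -0.26. *Rad21* differed from its neighbours by -0.031 and *Nipbl* by 0.061, so neither stood apart from them. *Smc3* differed by -0.13 and *Pds5b* by -0.16. *Mau2* was 0.12 above its neighbours and 0.052 above the median of chromosome 8.

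The larger falls were not seen in the medians of nearby genes, though some of those genes fell. Of 50 neighbours each, 7 rose and 10 fell for *Stag1*, 9 rose and 12 fell for *Pds5a*, and 10 rose and 14 fell for *Esco2*. The shares over all genes tested were 24.1% higher and 23.8% lower, so these counts do not set the nearby genes apart. *Stag1* differed by -0.50 from neighbours with a median of -0.0062, *Pds5a* by -0.38 from neighbours at -0.10, and *Esco2* by -0.74 from neighbours at 0.0056. Measured against nearby genes, the 4 lowest cohesin genes other than *Smc1a* were thus *Esco2*, *Stag1*, *Pds5a* and *Stag2*, the same 4 as against all genes. These differences carry no test, and the part of position in the value of any gene was not tested.

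**Figure D4:**
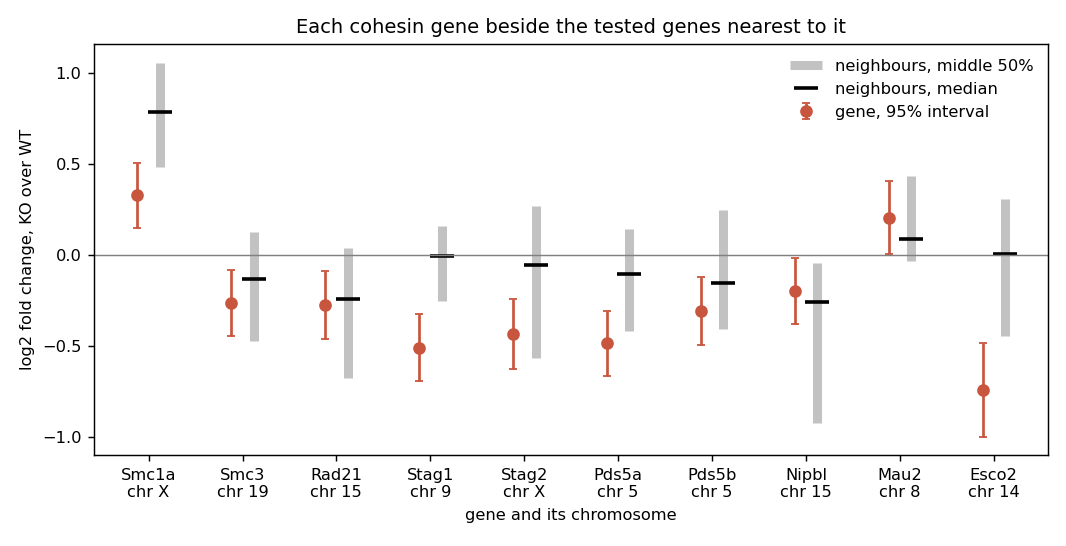
Log2 fold change of each cohesin gene with its 95% interval (circle and bar) beside the median (line) and the middle 50% (grey bar) of the tested genes nearest to it. *Smc1a* lies under a neighbour median of 0.79, and *Stag1* and *Esco2* lie below neighbours near 0.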

How the data were processed

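Per the labels and the study's methods, the authors made stranded, ribosomal RNA-depleted total RNA libraries from 2 WT and 2 *Patz1* KO MN cultures, mapped reads to mm10 and deposited raw counts per gene symbol. The submitters' processing notes name TopHat2 2.1.1, Bowtie2 2.3.1, featureCounts 1.6.2 and DESeq2. The annotation and strand setting of the counting are not given in the sources used here, so genes that overlap another are uncertain. Among the cohesin genes and their partners these are *Stag2*, *Pds5a*, *Patz1*, *Sgo2a*, *Chtf18*, *Chtf8*, *Dscc1*, *Plk1*, *Ctcf* and *Ctcfl*. Among the other named genes they are *Mcm7*, *Nefl*, *Col3a1*, *Pdgfra*, *Cubn*, *Dab2*, *Ube2c*, *Hes5*, *Sox1*, *Pou5f1* and *Tfcp2l1*.

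Counts were filtered with filterByExpr (minimum count 10), TMM-normalized and tested with edgeR's quasi-likelihood test (edgeR 4.0.16, limma 3.58.1, R 4.3.3) with Benjamini-Hochberg adjustment over all 14269 genes, called below 0.05, with the group as the only term. The SE was derived as the size of the log2 fold change over the root of its F statistic. The biological coefficient of variation was 7.71%. Replicates differed by more than counting noise (chi-square per gene 9.87 in WT and 22.0 in KO). With 2 libraries per group, p-values rest on a spread shared across genes.

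Of the symbols, 23037 were matched to GENCODE M21 (1260 by an older symbol), which gave positions and exon lengths on GRCm38. *Wapl*, *Sgo1*, *Sgo2a*, *Haspin* and *Nsmce3* were counted under older symbols. The 10 genes were taken by name and the lists from general knowledge, both with earlier results of these data known. The rule for named genes took the 10 cohesin genes, *Patz1*, every gene of the germline, cycle partner and boundary lists, and of each other list the 3 with the smallest p. *Pou5f1*, *Fgf4*, *Tfcp2l1* and *Zfp42* were named besides, after their values were seen. Of the cycle partners, 1 gene is counted in the totals but not reported here by itself. Alternatives were scaling by DESeq2's size factors, by library size only or by TMM after the 20 genes with most counts were removed, other filters, DESeq2's Wald test (1.42.0), a replicate block and leaving out each library, where a lone library was taken to vary like the others. The test was also run on counts simulated from its own fit with few changed genes. That setting is unlike these data, so it does not check the calls made here. Plots were drawn with matplotlib 3.10.9 in Python 3.11.15.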

Additional observations from a re-analysis of the deposited data

How the results depend on the processing

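The count of 8 called cohesin genes (7 lower, 1 higher) was 8 or 9 under each other scaling, both other filters and DESeq2's Wald test. The numbers 1 and 2 are shared by WT and KO libraries, but their deviations correlated at only 0.041 over genes, so they were not taken as pairs. With the replicate block the same count was 8, the median was -0.29, and 7361 genes were called in all. Leaving out 1 library at a time gave 4 to 9 called cohesin genes and a median of -0.37 to -0.21, with the lowest counts, 5 and 4, without WT replicate 1 and without WT replicate 2. Over the same 4 fits the difference in log2 ratio ran from -0.037 to 0.20 for *Stag2* to *Stag1*, where it turned negative without WT replicate 1, from 0.10 to 0.26 for *Pds5b* to *Pds5a* and from -0.49 to -0.29 for *Nipbl* to *Mau2*. *Maz* ran from -0.195 without KO replicate 1 to 0.022 without KO replicate 2. The comparison with neighbouring genes was added after the data were seen, and in it *Smc1a* was reversed to -0.46. *Mau2* was called with no filter on low counts (adjusted p = 0.0444). The number of libraries limits precision: the 95% intervals of the 10 cohesin genes allow for changes close to 0 in *Nipbl* and *Mau2*.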

Other observations

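The other SMC complexes were counted in the same libraries. Of 8 condensin genes, whose products fold mitotic chromosomes, 6 fell and 1 rose, with a median of -0.62. *Ncapg2*, *Smc2* and *Smc4* had the smallest p, with falls of 1.18, 0.96 and 0.72 (SE 0.0999, 0.089 and 0.092). *Smc2* was at 149.2 and 165.5 CPM in WT and at 79.9 and 81.5 CPM in KO. Of 7 genes of the SMC5/6 complex, which acts in DNA repair, 3 fell and 1 rose. Over all genes tested, 23.8% fell and 24.1% rose. The SMC5/6 median was -0.26, close to the -0.29 of the cohesin genes. *Nsmce4a* fell by 0.44 (SE 0.0995), *Nsmce3* rose by 0.39 (SE 0.107), and *Eid3*, with 34, 18, 18 and 5 counts, fell by 1.604 (SE 0.476).

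Chromosomes without a cohesin gene also differed in their medians. The median was 0.56 over 696 tested genes of chromosome 6, of which 65.2% rose, and it was 0.54 and 0.57 in the KO libraries. The 5 tested genes of the Y chromosome had a median of -1.94, with -2.01 and -1.74 in the KO libraries.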
